A study of Mus musculus with 8 samples.

Results

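Dbp, Tef, Hlf and Nfil3 encode the basic leucine zipper (bZIP) transcription factors that act on the D-box, 1 of the DNA elements of the circadian clock. They are 4 of the 13307 genes with a probe set of their own. All probe sets annotated to 1 of them alone were taken, which gave 7 of 24838 such single-gene probe sets: 2 for Dbp, 3 for Tef, 1 for Hlf and 1 for Nfil3. They were measured on Affymetrix 3' expression arrays in total RNA of primary fibroblasts cultured from mouse embryos and not made immortal. There were 4 Cry DKO lines (genotype Cry1-/- and Cry2-/-, lacking both cryptochromes, the repressors of the CLOCK and ARNTL pair) and 4 wild-type (WT) lines, each line independent and measured on 1 array. Both groups had a near-C57BL/6J background and were left untreated. Cells of both grew without synchronisation in medium with 10% serum at 3% oxygen. The clock phase of the cultures was not measured. No embryo age is stated in the labels.

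The D-box is bound by activators and by a repressor. DBP, TEF and HLF are the PAR bZIP proteins, named for a proline- and acidic-residue-rich domain, and they activate transcription; NFIL3, also called E4BP4, binds the same element and represses. In the mouse clock Dbp is a classic target of CLOCK and ARNTL through E-boxes, and cryptochromes hold this activation back, while Nfil3 is controlled through the RORE, the element at which ROR receptors activate and the NR1D receptors (REV-ERBs) repress. In liver, kidney and brain the PAR bZIP proteins drive genes of detoxification and metabolism in a daily rhythm.

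The regions before the annotated starts are shown for the 3 genes that differed between the genotypes, since they hold the elements named above in Tef and Nfil3. Each run is the 250 bases before a start of the RefSeq annotation, 5′ to 3′ on the gene's strand, on build GRCm38.p6, and all 4 members had an entry (Tef had 2 starts). The windows are chr15:81802423-81802672 and chr15:81811164-81811413 for Tef (plus strand), chr13:52981040-52981289 for Nfil3 (minus strand) and chr7:45704997-45705246 for Dbp (plus strand). Those of Dbp, of the second Tef start and of Nfil3 overlap the annotated span of their gene, which holds an earlier start. Capitals mark matches to the motifs searched on both strands: the E-box CACGTG, the D-box as TTATGTAA or TTACGTAA, the RORE core TAGGTCA and the cAMP response element TGACGTCA.
Tef, first start: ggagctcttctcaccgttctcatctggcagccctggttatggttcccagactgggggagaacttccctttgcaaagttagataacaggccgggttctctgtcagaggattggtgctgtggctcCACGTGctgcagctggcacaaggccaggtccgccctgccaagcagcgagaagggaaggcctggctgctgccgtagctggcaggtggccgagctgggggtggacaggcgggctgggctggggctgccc
Tef, second start: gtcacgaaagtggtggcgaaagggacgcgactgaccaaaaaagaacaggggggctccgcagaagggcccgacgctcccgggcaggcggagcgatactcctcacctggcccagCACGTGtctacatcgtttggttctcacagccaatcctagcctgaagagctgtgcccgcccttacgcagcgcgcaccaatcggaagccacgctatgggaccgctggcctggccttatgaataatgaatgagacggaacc
Nfil3: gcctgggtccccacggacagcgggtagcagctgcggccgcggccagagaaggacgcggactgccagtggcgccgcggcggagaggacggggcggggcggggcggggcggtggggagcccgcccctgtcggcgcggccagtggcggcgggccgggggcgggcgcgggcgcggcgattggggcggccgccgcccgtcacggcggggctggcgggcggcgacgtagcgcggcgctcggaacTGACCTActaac
Dbp: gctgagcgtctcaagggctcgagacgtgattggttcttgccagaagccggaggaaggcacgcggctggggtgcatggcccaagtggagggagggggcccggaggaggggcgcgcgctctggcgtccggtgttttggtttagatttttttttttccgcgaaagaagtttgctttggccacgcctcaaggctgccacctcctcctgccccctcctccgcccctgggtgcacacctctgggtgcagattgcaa

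Both Tef windows held the E-box letters, 127 to 122 bases before the first start and 138 to 133 bases before the second. Over all 32851 such windows 6.02% held them. The Nfil3 window held the RORE core on its opposite strand, 12 to 6 bases before the start, as 2.23% of all windows did in either direction. Hlf held the cAMP response element 9 to 2 bases before its start (1.55% of all windows). Neither D-box spelling was found in any member's window, and the Dbp window held none of the motifs, which says only that these letters are not in these 250 bases.

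Array medians lay between 6.78 and 6.79 and correlations between arrays of 1 genotype between 0.973 and 0.977, against 0.967 to 0.975 between genotypes. Fibroblast genes were strong, with a mean of 7 tested markers of 12.9 to 13.1 in Cry DKO lines and 13.1 to 13.3 in WT lines; Pdgfra, Dcn and Lum lay below the floor defined below. Endothelial markers (4 with values) and liver markers (Afp and Ttr) were all below the floor. All 16 macrophage markers were above the floor. In the gene fit defined below 9 of them were higher in Cry DKO lines, as were 4.95% of all genes. Their list mean was 8.77 to 9.71 in Cry DKO lines against 8.10 to 8.69 in WT lines. The Y-linked gene Eif2s3y read 0.61, 9.08, 9.04 and 2.97 in Cry DKO lines 1 to 4, against 2.83, 9.18, 9.42 and 9.13 in WT lines, so lines of unlike sex stood in both groups. The targeted genes did not pass: Cry1 read 6.29 ± 0.31 in Cry DKO lines and 6.79 ± 0.40 in WT lines, and Cry2 6.87 ± 0.20 and 7.20 ± 0.18 (SD, n = 4 each; limma adjusted p = 0.168 and 0.132). The labels do not say whether their probes fall inside the deleted sequence, so neither gene checks the genotype labels.

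All values below are array signals on the log2 scale, differences are Cry DKO minus WT with their standard error (SE), and n is 4 lines per genotype. Signals of different probe sets are not comparable as levels, since each probe set has its own brightness. The ending _s_at marks probe sets whose probes match several transcripts. The floor is the 40th percentile of mean signal over all probe sets, 6.06. Of the members' 7 probe sets 5 reached it, those of Dbp and Nfil3 and 2 of Tef; the third Tef probe set and the only Hlf probe set did not. Every probe set was tested in a fit over all 24838 single-gene probe sets with no floor (the probe set fit). Dbp, Tef and Nfil3 were also tested in a fit over 9511 genes above the floor, each represented by its brightest probe set (the gene fit). Adjusted p-values come from limma, by the Benjamini-Hochberg method over the whole fit, and the threshold is 0.05.

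The activators Dbp and Tef rose and the repressor Nfil3 fell in the bulk RNA of Cry DKO cultures, while the dim Hlf did not pass. The Nfil3 call was less firm, and did not hold in 4 of the 8 gene fits that left out 1 line. In the probe set fit 4 of the 7 probe sets were higher, both of Dbp and 2 of Tef, 1 was lower, that of Nfil3, and 2 did not pass. Over the whole probe set fit 3.99% passed, 2.18% as higher and 1.81% as lower. The Cry DKO and WT lines did not overlap for 6 of the 7 probe sets, against 12.1% of all probe sets and 16.8% of all genes in the gene fit. In the gene fit, where 9.18% of genes passed (4.95% higher and 4.23% lower), Dbp had the 4th highest and Tef the 32nd highest difference, and Nfil3 the 216th lowest, of 9511 genes.

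**Figure D1:**
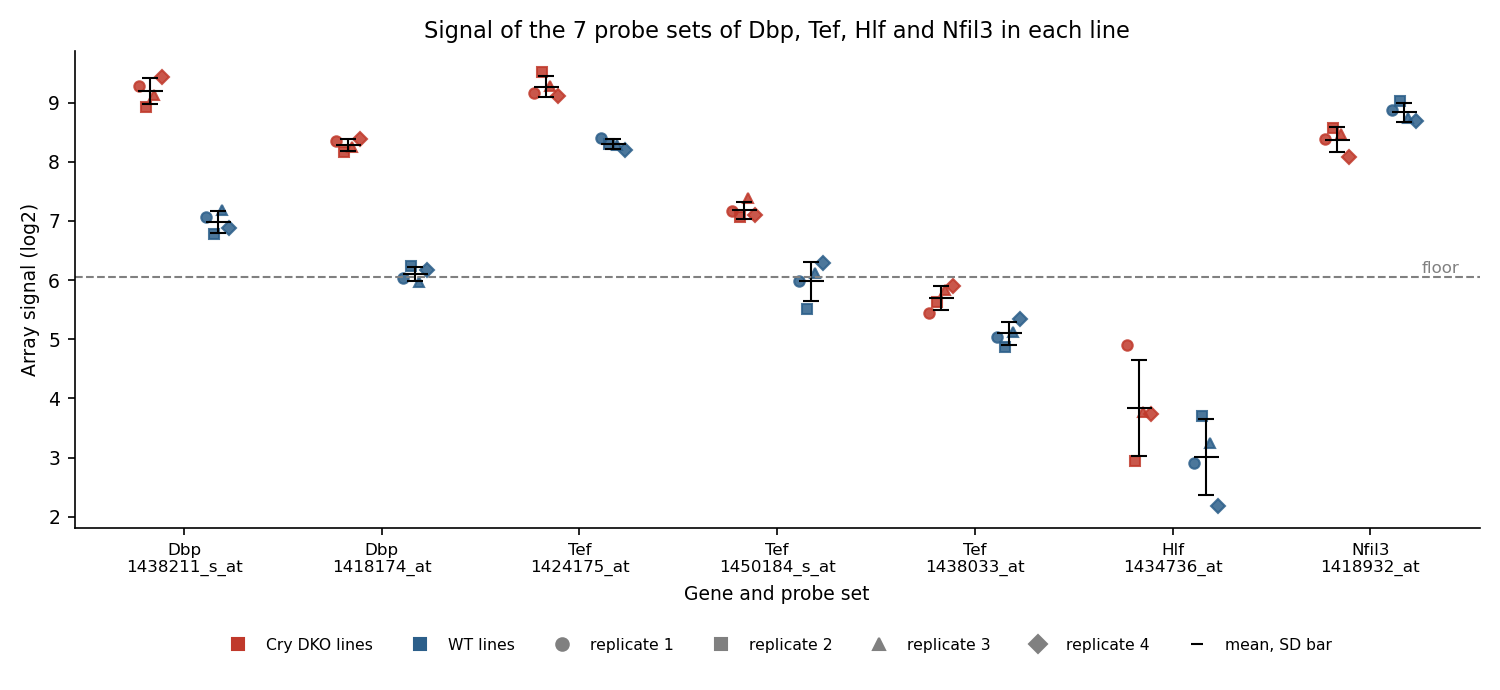
Array signal (log2) of each of the 7 probe sets, with 1 point per line, Cry DKO lines in red left of WT lines in blue, marker shape by replicate number, black bars for mean and SD, and the floor of 6.06 dashed. The genotypes are apart for all probe sets but that of Hlf, with the widest gap for Dbp and Nfil3 lower in Cry DKO lines.

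Dbp, the activator named for binding the albumin promoter, changed most. Its probe set 1438211_s_at read 9.29, 8.94, 9.13 and 9.43 in Cry DKO lines 1 to 4, against 7.07, 6.79, 7.19 and 6.88 in WT lines 1 to 4. The lowest Cry DKO line lay 1.74 above the highest WT line. The difference was 2.21 (SE 0.12, adjusted p = 2.04e-06 in the probe set fit and 4.16e-06 in the gene fit), a 4.64-fold higher signal. Its second probe set, 1418174_at, read 8.35, 8.16, 8.24 and 8.39 in Cry DKO lines, against 6.04, 6.25, 5.97 and 6.17 in WT lines. The gap between the groups was 1.92 and the difference 2.18 (SE 0.10, limma adjusted p = 1.11e-06), so both probe sets gave nearly the same change.

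Within a genotype the spread of Dbp was small, with an SD of 0.21 and 0.10 for the probe sets in Cry DKO lines and 0.18 and 0.12 in WT lines. Among Cry DKO lines both probe sets were highest in line 4 and lowest in line 2. Among WT lines they went opposite ways: 1438211_s_at was highest in line 3 and lowest in line 2, and 1418174_at was highest in line 2 and lowest in line 3. Over the deviations of all 8 lines from their genotype means the correlation between the probe sets was -0.02, given as a description. That value pools 0.991 over the 4 Cry DKO lines and -0.997 over the 4 WT lines. The small differences among WT lines were therefore not shared by the probe sets, whereas the difference between genotypes was.

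Tef, thyrotroph embryonic factor, rose by about 1 on the log2 scale in both probe sets above the floor. Its brightest probe set, 1424175_at, read 9.17, 9.51, 9.28 and 9.12 in Cry DKO lines, against 8.41, 8.31, 8.28 and 8.20 in WT lines. All Cry DKO lines were above all WT lines, by 0.71 at the closest, and the difference was 0.97 (SE 0.09, limma adjusted p = 0.000264 in the probe set fit and 0.000251 in the gene fit), a 1.96-fold higher signal. Probe set 1450184_s_at read 7.17, 7.06, 7.39 and 7.10 in Cry DKO lines, against 5.99, 5.52, 6.12 and 6.28 in WT lines. The groups were apart by 0.78, and the difference was 1.20 (SE 0.16, limma adjusted p = 0.00286), with the WT mean of 5.98 just under the floor.

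The third Tef probe set, 1438033_at, lay below the floor and read 5.44, 5.64, 5.84 and 5.89 in Cry DKO lines, against 5.05, 4.87, 5.13 and 5.35 in WT lines. The groups did not overlap, but the gap was only 0.10. Its difference of 0.60 (SE 0.18, limma adjusted p = 0.0919) did not pass, with a 95% interval of 0.21 to 1.0 that includes the 0.97 of the brightest probe set. The interval is unadjusted for the number of probe sets.

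Hlf, hepatic leukemia factor, was dim. Its probe set 1434736_at, at the 7.57th percentile of mean signal, read 4.90, 2.94, 3.76 and 3.74 in Cry DKO lines, against 2.90, 3.70, 3.24 and 2.17 in WT lines. The groups overlapped. The difference of 0.83 (SE 0.48, limma adjusted p = 0.398) did not pass, and its 95% interval ran from -0.22 to 1.88. Leaving out 1 line moved it to between 0.47, without Cry DKO line 1, and 1.13, without Cry DKO line 2, and it was 0.55 without WT line 4. The interval holds both 0 and the 0.97 of Tef, so the values do not settle whether Hlf changed by that much. The SD between lines was 0.81 in Cry DKO and 0.64 in WT lines, and the median SD over probe sets with a mean under 5 was 0.55.

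Nfil3, the repressor, moved the other way by a smaller amount. Its probe set 1418932_at read 8.38, 8.57, 8.48 and 8.08 in Cry DKO lines, against 8.88, 9.04, 8.74 and 8.69 in WT lines. All Cry DKO lines were below all WT lines, with 0.12 between the closest, and line 4 was the lowest in each genotype. It fell by 0.46 (SE 0.11), a 1.37-fold lower signal, with a limma adjusted p of 0.0298 in the gene fit and 0.0403 in the probe set fit. This call lay close to the threshold. In the gene fit it ended without Cry DKO line 1 (adjusted p = 0.0536), WT line 1 (0.0731), WT line 2 (0.0807) or WT line 3 (0.0583). The difference stayed between -0.52 and -0.36 when any 1 line was left out. Leaving out 1 line did not end the calls of Dbp and Tef in the gene fit in any of 8 fits, with adjusted p-values up to 5.15e-05 and 0.00183.

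**Figure D2:**
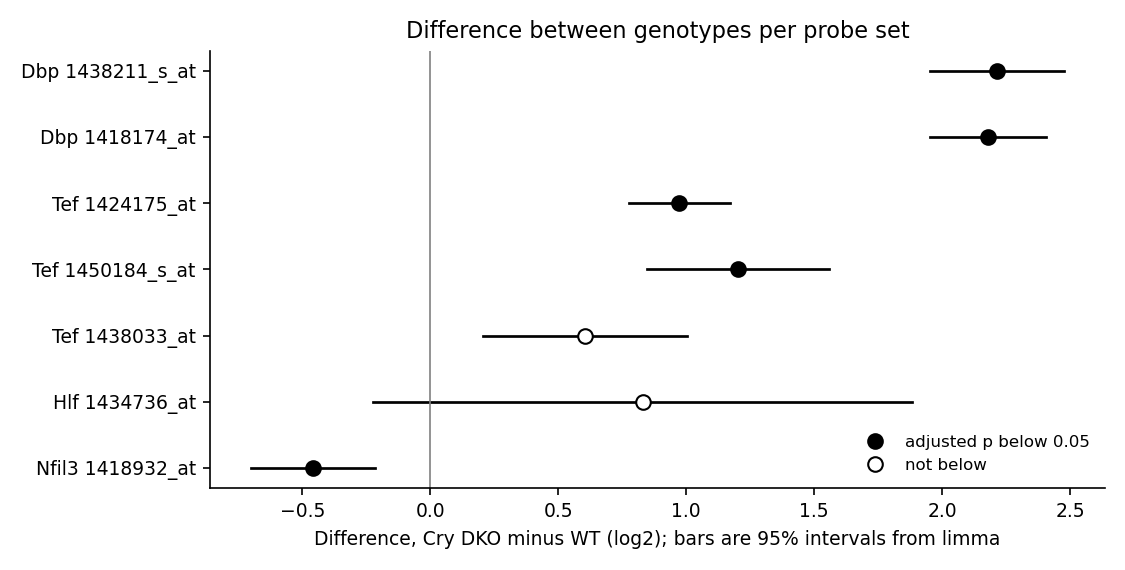
Difference between Cry DKO and WT lines (log2) for each of the 7 probe sets, with 95% intervals from limma; filled points passed an adjusted p of 0.05 and open points did not. Both Dbp probe sets lie near 2.2, the Tef probe sets between 0.60 and 1.20, Hlf at 0.83 with a wide interval, and Nfil3 at -0.46.

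With the 8 lines reassigned to groups of 4 in all 70 ways, an exact two-sided permutation test gave p = 0.0286 for each of the 6 probe sets whose groups did not overlap, which is the smallest value this design can give, and p = 0.143 for Hlf. Each p-value is set against the spread from line to line.

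**Figure D3:**
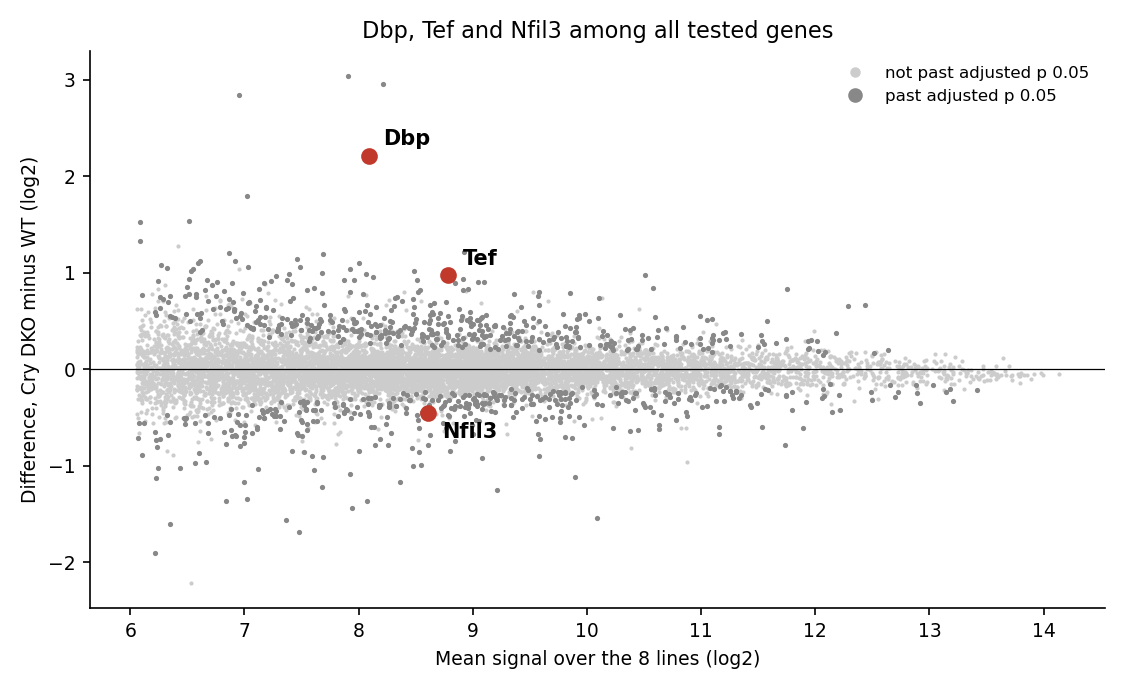
Difference between Cry DKO and WT lines (log2) against mean signal over the 8 lines (log2) for the 9511 genes of the gene fit, with called genes in dark grey and Dbp, Tef and Nfil3 in red. Dbp at 2.21 stands far above most genes of like signal, Tef at 0.97 is at the upper edge, and Nfil3 at -0.46 is among many genes of similar size.

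The balance of activators and repressor was read within each line, as the mean of Dbp and Tef minus Nfil3 on the log2 scale. Probe set offsets make a single value arbitrary, so it has meaning only as a difference between lines, and no test was made of it. It was 0.85, 0.66, 0.73 and 1.20 in Cry DKO lines 1 to 4, against -1.13, -1.49, -1.01 and -1.15 in WT lines 1 to 4. The mean was 0.86 ± 0.24 in Cry DKO lines and -1.19 ± 0.21 in WT lines (SD, n = 4 each), a shift of 2.05 toward the activators. For Dbp alone against Nfil3 the shift was 2.67 and for Tef alone 1.43. Dbp contributed most of it, and Nfil3 added 0.46 to each.

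How the activators varied among lines of 1 genotype depended on the probe set and the genotype. In Cry DKO lines the brightest probe set of Tef was highest in line 2, where Dbp was lowest, and lowest in line 4, where Dbp was highest. Over deviations from the genotype means in the 8 lines, the correlation of the brightest probe sets was -0.57 between Dbp and Tef, -0.74 between Dbp and Nfil3 and 0.74 between Tef and Nfil3. For Dbp and Tef it was -0.98 over the 4 Cry DKO lines alone and 0.32 over the 4 WT lines alone, and with the other Tef probe set above the floor it was 0.29 over all 8. With the other Dbp probe set the correlation with Nfil3 was -0.23, and with that other Tef probe set the correlation of Tef with Nfil3 was -0.45. These values describe 8 lines that share their arrays' scaling, and they depend on which probe set is read.

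**Figure D4:**
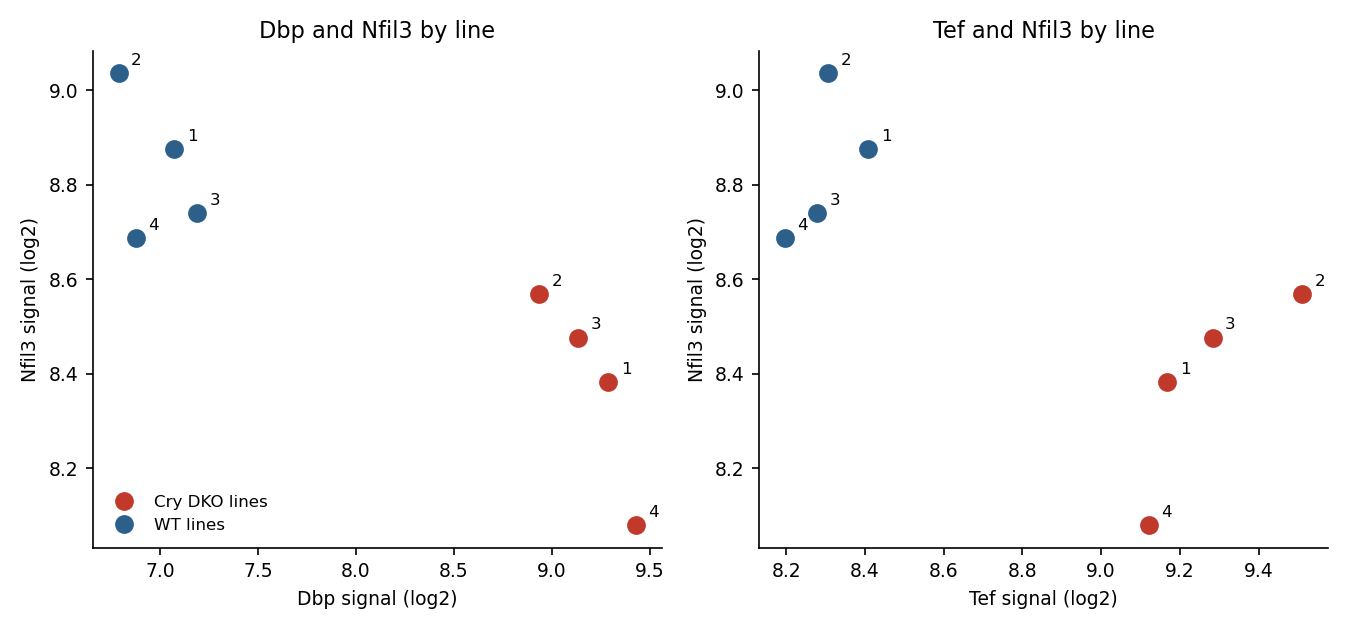
Nfil3 signal (log2) against Dbp signal (left) and Tef signal (right, both log2) in each line, brightest probe sets, Cry DKO lines in red and WT lines in blue with their replicate numbers. The genotypes occupy separate corners in both panels, and within Cry DKO lines Nfil3 is lower where Dbp is higher and higher where Tef is higher.

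The rise of macrophage markers went with genotype (median difference 0.76 over 16 markers), and in bulk RNA more cells of a type and more RNA per cell cannot be told apart. With the mean of these markers as a covariate the difference was 2.14 for Dbp (limma adjusted p = 0.00182) and 0.99 for Tef (0.0243). For Nfil3 it was -0.39 (adjusted p = 0.319) and did not pass. The SE rose from 0.12 to 0.20 for Dbp, from 0.09 to 0.15 for Tef and from 0.11 to 0.18 for Nfil3. The marker mean did not overlap between the genotypes, so this fit cannot separate macrophage signal from genotype, and no conclusion is drawn from it. Within genotypes the members' 7 probe sets had correlations with the macrophage mean between -0.28 and 0.25 over the 8 lines. With the Y-linked signal as a covariate the differences were 2.15, 1.0 and -0.42, and Nfil3 did not pass (adjusted p = 0.0727).

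Genes of the pathway around the D-box factors were read from fixed lists in the gene fit. Over all genes of that fit the median was -0.01, and 4.95% rose and 4.23% fell. Of 8 tested clock genes activated through E-boxes, as Dbp is, 7 rose and none fell, with a median of 0.67. The list also held 2 genes below the floor, Per3, given further on, and Bhlhe41. In the probe set fit Bhlhe41 had a difference of -0.28 that did not pass (adjusted p = 0.629). Per2, a partner of the cryptochromes in repression, rose by 2.84 (SE 0.14, limma adjusted p = 3.37e-06). Its mean was 8.37 in Cry DKO lines and 5.53 in WT lines, where all 4 lines lay below the floor, so Per2 entered the gene fit through its Cry DKO signal. For Ciart, which represses the CLOCK and ARNTL pair, the rise was 1.80. Nr1d2, a REV-ERB receptor, rose by 0.98, Per1 by 0.79, the repressor Bhlhe40 by 0.54, the kinase gene Wee1 by 0.48 and the NAD-synthesis gene Nampt by 0.45. In the probe set fit the other Wee1 probe set, above the floor, differed by 0.36 and did not pass (limma adjusted p = 0.0912). Of the other Nampt probe sets, 1455320_at passed at 0.42 (adjusted p = 0.0424). The other, 1448607_at, lay below the floor and did not pass at -0.04 (adjusted p = 0.883). Nr1d1, the other REV-ERB receptor, had a difference of 0.50 that did not pass (adjusted p = 0.052), and without Cry DKO line 4 it passed at 0.61 (adjusted p = 0.02). It also passed with scaling to the 75th percentile (adjusted p = 0.0476) and with array weights (0.0274), and with the macrophage marker mean as a covariate its difference was 0.19 (adjusted p = 0.679). The call of Per1 ended without Cry DKO line 1, 2 or 3 or WT line 1, with adjusted p-values of 0.0705, 0.0695, 0.0785 and 0.0527. It also ended with no intensity trend (adjusted p = 0.0503), with the Y-linked covariate (0.0765) and with the macrophage covariate, where the difference was 0.67 (adjusted p = 0.334). With the macrophage covariate, which cannot be separated from genotype, Bhlhe40 had 0.48, Wee1 0.49 and Nampt 0.49. None of them passed (adjusted p = 0.139, 0.13 and 0.112). The Tef difference of 0.97 was close in size to that of Nr1d2.

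The RORE list held genes controlled as Nfil3 is, with the receptors that act there. Of 5 tested members 1 rose, the repressing receptor Nr1d2, and 1 fell, Arntl, the partner of CLOCK and a classic RORE target, by 1.56 (SE 0.11, limma adjusted p = 3.65e-05). Of all genes 4.95% rose and 4.23% fell. The second Arntl probe set, below the floor, differed by -0.66 and did not pass in the probe set fit (adjusted p = 0.108). The Nfil3 difference, -0.46, was smaller in size. Clock had a difference of 0.00 in its brightest probe set and Rora, the activating receptor, one of -0.12 (adjusted p = 0.604), and neither passed. The other 3 Clock probe sets, all above the floor, differed by -0.31, -0.38 and -0.21 and did not pass in the probe set fit (adjusted p = 0.24, 0.209 and 0.399). The median of the list, read from the brightest probe sets, was 0.00.

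Genes of the clock that carry D-boxes were read as possible targets of the 4 factors. Of 5 tested, 3 rose and none fell, with a median of 0.79, while 4.95% of all genes rose and 4.23% fell. The 3 were Per2, Nr1d2 and Per1, all of which also stand in the E-box list. Nr1d1 and Rora did not pass. Per3, below the floor over all lines, was read in the probe set fit, where its probe set 1421087_at had a mean of 6.85 in Cry DKO lines and 5.13 in WT lines, a difference of 1.72 (limma adjusted p = 0.000667), and 3 of its 5 probe sets passed as higher. Every gene of this list that rose also stands in the E-box list, so the values do not separate the 2 elements. Rora, which is not in the E-box list, had a difference of -0.12 (adjusted p = 0.604).

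The output genes that PAR bZIP proteins drive in liver, kidney or brain were mostly dim or not analysed here. Of 24 listed, 11 had a probe set in the table and 4 were above the floor, with a median difference of 0.02. Of these 4, 1 rose, as did 4.95% of all genes. Pdxk, pyridoxal kinase, which makes the active form of vitamin B6 and is a PAR bZIP target in mouse brain, rose. It read 8.03 ± 0.17 in Cry DKO lines and 7.37 ± 0.16 in WT lines (SD, n = 4 each), a difference of 0.67 (SE 0.11, limma adjusted p = 0.00545). Its dimmer probe sets differed by 0.87 and 0.37, which was not past the threshold in the probe set fit (adjusted p = 0.0747 and 0.429). With the macrophage marker mean as a covariate the Pdxk difference was 0.41 and did not pass (adjusted p = 0.229). Papss2, which makes the sulfate donor of sulfation, had a difference of -0.22 (adjusted p = 0.0553), Abcg2, a drug efflux transporter, one of 0.05, and Alas1, the first enzyme of haem synthesis, one of -0.01, and none of them passed. The 7 genes below the floor, among them Cyp2b10, Cyp3a11 and Gstt1, gave no call in the probe set fit.

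The C/EBP proteins are bZIP relatives of the PAR family. None of 5 tested members passed in limma, 1 of them at an unadjusted p under 0.05: Cebpg, with a difference of 0.17 (adjusted p = 0.129). Cebpa had 0.44 (adjusted p = 0.331), Cebpd 0.09, Cebpb 0.02 and Ddit3 -0.17. The list median was 0.09, and 9.18% of all genes passed.

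**Figure D5:**
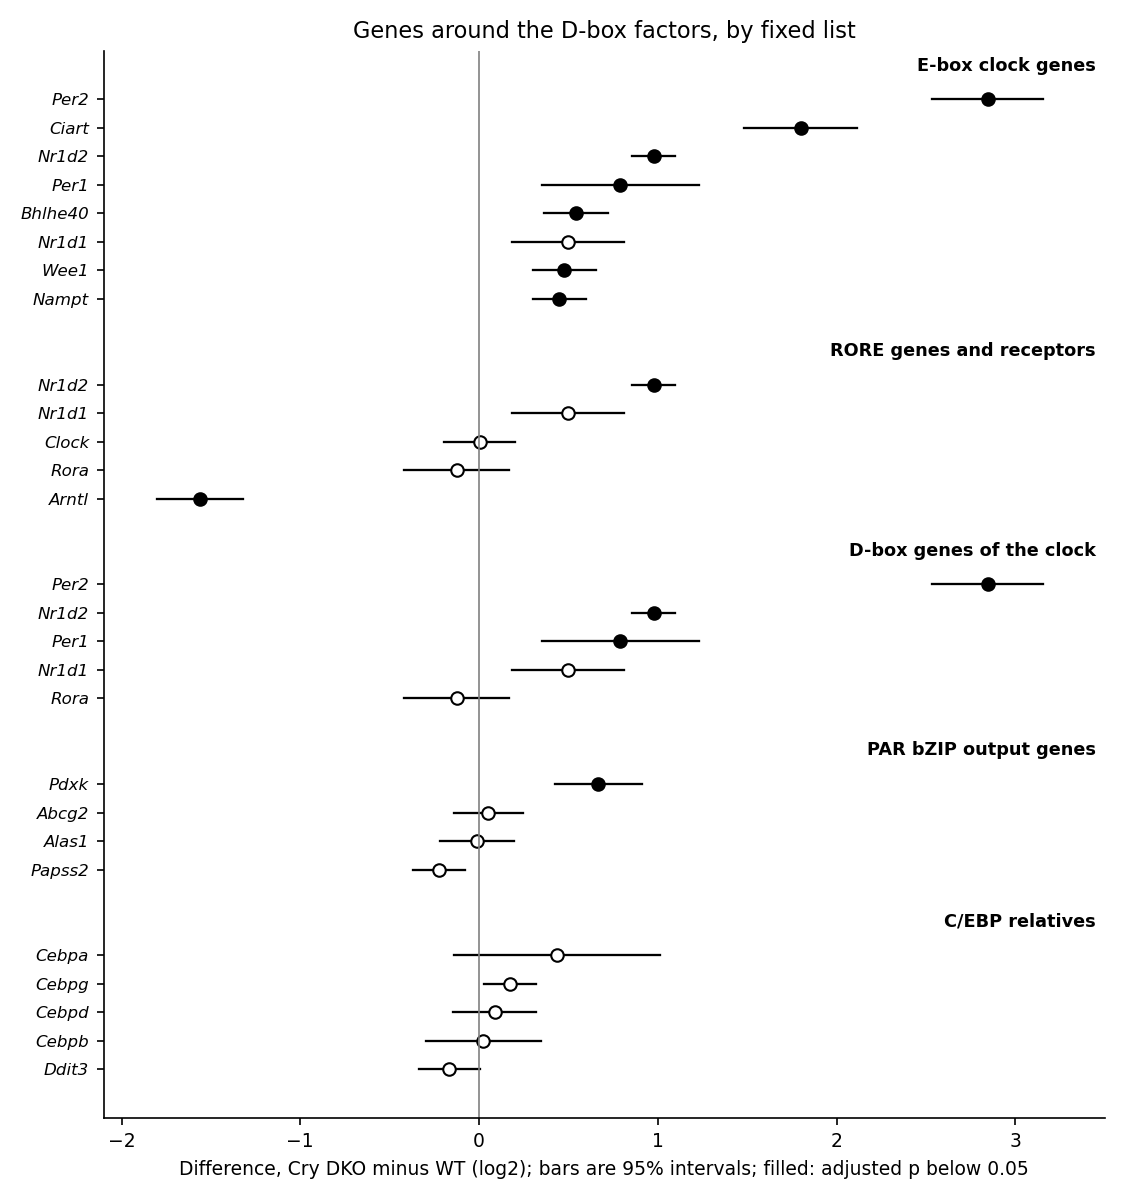
Difference between Cry DKO and WT lines (log2) with 95% intervals for the tested genes of the 5 lists; filled points passed an adjusted p of 0.05. E-box clock genes lie to the right of 0, Arntl is far to the left, and the C/EBP relatives lie between -0.17 and 0.44, with open points.

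Genes whose values followed the members most closely over the 8 lines were ranked by Pearson correlation among 9510 genes, as a description that both genotype and line-to-line spread enter. Dbp was followed by Nr1d2 (r = 0.995), Hus1 (0.987), Spc25 (0.984), Top2a (0.981) and Ncapd2 (0.981). Their differences between genotypes were smaller than that of Dbp, 0.98 for Nr1d2, 0.29 for Hus1, 0.41 for Spc25, 0.56 for Top2a and 0.30 for Ncapd2. Tef was followed by Brca1 (0.983), Mthfd1l (0.981), Cdk1 (0.979), Mcm2 (0.977) and Tspan4 (0.976), all higher in Cry DKO lines by 0.34 to 0.66. Nfil3 was followed by Nxn (0.991), Aldh7a1 (0.985), Npr2 (0.985), Tceal9 (0.979) and Cbr1 (0.978), with differences of -0.30 to -0.24, of which Nxn and Tceal9 passed.

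With the genotype means removed the closest genes were others, apart from Nxn. For Dbp they were Hadhb (0.991), Iars (0.968), Tmem98 (0.966), Cpd (0.957) and Washc2 (0.953), none of which passed between genotypes. For Tef they were Dennd2a (0.986), Trmt2a (0.965), Vrk1 (0.962), Prkx (0.962) and Tfg (0.954), of which Vrk1 rose by 0.35. For Nfil3 they were Fkbp4 (0.974), Nxn (0.972), Bok (0.972), Ptcd2 (0.966) and Ctu1 (0.958). Fkbp4 rose by 0.33 while Nfil3 fell. Each ranking read the member's brightest probe set, and the genes named are the top 5 of 9510 over 8 lines. For Dbp, deviations of that probe set correlated at -0.02 with those of the other Dbp probe set (0.991 over Cry DKO lines and -0.997 over WT lines). For Tef they correlated at -0.23 with 1450184_s_at and -0.30 with 1438033_at. The genes named for Dbp and Tef therefore followed the probe set read, and no conclusion is drawn on the gene as a whole.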

How the data were processed

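The deposited table gives 30506 probe sets in 8 arrays. The values deposited by the authors are taken as log2; the base is inferred from their range (0.07 to 14.3) and every fold rests on it. The submitters' processing notes name GCOS (Affymetrix software) and no version. Summarisation, normalisation and the choice of listed probe sets are not stated in the labels. Array medians nearly coincide, so the values were used as deposited. Sample titles gave each group and replicate number. Probe sets were named through the platform's annotation table: 24838 with 1 gene (symbols updated through gene identifiers for 24757), 658 with several (none a member), 61 controls and 4949 unnamed.

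The test of genotype was limma 3.58.1 (R 4.3.3) with an intensity trend and no covariate. The gene fit used the brightest probe set per gene at or above the floor, the probe set fit all single-gene probe sets. Detection calls were not used. On simulated data for the Cry DKO and WT comparison over 9511 genes, the test called 65.6% of genes shifted by 0.5, 96.8% of genes shifted by 1, 100% of genes shifted by 2 and 0.0838% of the rest. The members and lists were chosen with earlier results of these data known. Named genes are every member probe set, Cry1 and Cry2, called list members filled up to 4 by smallest p, and the 5 closest genes per member and measure; Per3, Cebpb, Cyp2b10, Cyp3a11, Gstt1 and the markers named were chosen after their values were seen. Alternatives were a replicate block, other scalings, floors, gene summaries and empirical Bayes settings, array weights, 2 covariates and leaving out each array with the tested rows kept. The number of arrays limits the precision.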

Additional observations from a re-analysis of the deposited data

Results flagged for a closer look

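In 68 groups of 4 lines (34 genes, probe sets or means read in each genotype), 6 held a line whose gap to the nearest other, as a share of the group's range, passed Dixon's critical value at the 95% level. Chance flags about 5% of such groups. The difference of Tef and Nfil3 was lowest in WT line 2, at -0.73 against -0.49 to -0.46 in the other WT lines (share 0.894), the WT line with the highest Nfil3. Per1 read 5.90 in WT line 3 against 6.79 to 6.84 in the others (0.95). Pdxk read 7.61 in WT line 1 against 7.26 to 7.30 (0.912), and Nampt 8.29 in WT line 4 against 8.14 to 8.16 (0.905). Nr1d2 read 10.9 in Cry DKO line 2 against 11.0 in each of the others (0.867). The fibroblast marker mean was 13.3 in WT line 2 against 13.1 in each of the others (0.888). None of the members' 7 probe sets held such a line.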

How the results depend on the processing

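Dbp, Tef (1424175_at) and the shift of activators against Nfil3 kept their direction, and Dbp and Tef their calls, in every alternative run. The count of called genes, 873, was 478 with the Y-linked covariate, 34 with the macrophage covariate and 382 to 686 when 1 line was left out; that of probe sets, 992, was 540, 27 and 467 to 738, and 265 with no intensity trend. Of the 8 lines, leaving out WT replicate 3 gave the lowest of both counts. Nfil3 had -0.42 with the Y-linked and -0.39 with the macrophage covariate and did not pass; with no intensity trend its -0.46 did not pass in the probe set fit (adjusted p = 0.14). It had -0.52 to -0.36 without 1 line, and did not pass in 4 of 8 gene fits and 6 of 8 probe set fits. Tef 1450184_s_at had 1.07 with the macrophage covariate and did not pass (adjusted p = 0.161). Called E-box genes numbered 3 with that covariate, where Per1, Bhlhe40, Wee1 and Nampt did not pass, with differences of 0.48 to 0.67. They numbered 4 with a floor at the 60th percentile, which tests fewer genes and left 1 RORE gene and 1 D-box gene. Called PAR bZIP output genes, counted in either direction, numbered 2 with a replicate block, array weights or the mean of probe sets, and 0 with the macrophage covariate. Papss2 passed as lower in Cry DKO lines with the block (-0.22, limma adjusted p = 0.0352) and with array weights (-0.23, 0.0436). Other causes were not tested. The labels give no shared source for lines of the same replicate number. Deviations of same-numbered lines correlated at 0.36, 0.12, 0.23 and -0.01, so the numbers were not taken as pairs, since 1 of the 4 correlations was not above 0.1; 3 of 4 Cry DKO lines correlated best with their own number, a hint from the data and not from the design. With the replicate block 1051 genes and 1324 probe sets passed, and no member's call changed. Dim signal limits Hlf and Tef 1438033_at, which did not pass in any alternative.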
